A study of Mus musculus with 12 samples.

Results

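The genes described here code for matrix metalloproteinases (MMPs), for ADAMTS proteases and for the tissue inhibitors of metalloproteinases (TIMPs). They were taken by name from the 54532 genes of the deposited table, as all protein-coding genes named Mmp or Adamts with a number, or Timp1 to Timp4. This gave 45 genes, 22 MMP, 19 ADAMTS and 4 TIMP genes. RNA-seq was done on 12 libraries of mouse embryonic fibroblasts (MEFs, connective tissue cells grown from mouse embryos), with 3 libraries in each of 4 groups. CHIP-KO cells held for 1 hour at 43 °C and unheated CHIP-KO cells were set beside wild-type (WT) cells held for 1 hour at 43 °C and unheated WT cells. CHIP, encoded by Stub1, is a ubiquitin ligase that works with heat shock chaperones. The labels name the cells only as MEF and give no strain, embryo, age or clone, so a difference between the genotypes and one between the cultures that carried them cannot be told apart. No label tells separate cultures from repeat preparations within a group, so the p values here speak to the variation among these 12 libraries and may reflect technical variation only.

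MMPs are secreted or membrane-bound zinc proteases that cut collagens, gelatins, fibronectin and other matrix proteins, and most are made as inactive precursors whose propeptide must be removed. ADAMTS proteases are secreted relatives that carry thrombospondin repeats. They include enzymes that cut aggrecan and versican and enzymes that trim the amino-terminal propeptide from fibrillar procollagens. TIMPs bind the active site of MMPs, and TIMP3, which is held in the matrix, also blocks several ADAMTS proteases. In fibroblasts these genes are known for matrix turnover, and transcript levels do not measure enzyme activity.

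Values are FPKM (fragments per kilobase of gene length, scaled between libraries by the authors), so levels can be set beside each other between genes. Changes are differences of log2(FPKM + 1) between group means of 3 libraries each, with a standard error (SE) from limma, and a change was called when its Benjamini-Hochberg adjusted p over 13023 genes was under 0.05. The added 1 makes changes of weakly expressed genes smaller, so ratios of mean FPKM are given beside them. Libraries held 15591924 to 26954112 fragments. Stub1 was at 0.996 to 1.17 FPKM in heated and 0.722 to 1.17 FPKM in unheated CHIP-KO libraries, against 53.8 to 57.9 FPKM in heated and 57.5 to 64.1 FPKM in unheated WT libraries. Replicate 1 of both WT groups and replicate 1 of heated CHIP-KO stood apart from the other libraries of their groups. Where leaving out a library changed a call, the adjusted p without it is given.

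Of the 45 genes, 21 reached 1 FPKM in at least 3 of the 12 libraries and entered the fit: 10 MMP, 8 ADAMTS and 3 TIMP genes. Another 18 had fragments but stayed below this level, and 6 were at 0 in every library (Mmp1b, Mmp7, Mmp8, Mmp12, Mmp20 and Adamts19). Of the 21, 15 were at 1 FPKM or more in every library. The other 6 were Adamts2, Mmp9, Mmp23, Mmp3, Mmp15 and Mmp16. Mmp3 reached 1 FPKM in heated WT libraries alone and Mmp23 in the heated libraries alone, while Mmp15 reached it in WT libraries alone and Mmp16 in CHIP-KO libraries alone. These 4 passed only through groups in which they were high, so their differences from the other groups are given as a description and support nothing further. Counts over the 21 are given as a description, beside the share of all 13023 genes called the same way.

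TIMP transcripts were the most abundant, and 1 gene led each family in every group. Summed MMP FPKM was 241 ± 1.87 (SD, n = 3) in heated and 243 ± 8.19 in unheated CHIP-KO cells, and 248 ± 17.6 in heated and 115 ± 3.40 in unheated WT cells. Unheated WT cells thus had the lowest MMP sum, and the other groups lay close together. Mmp14 made up 44.5% of the sum in heated and 43.9% in unheated CHIP-KO cells, and 70.1% in heated and 66.6% in unheated WT cells. Summed ADAMTS FPKM was 68.2 ± 0.858 in heated and 70.2 ± 1.12 in unheated CHIP-KO cells, and 98.6 ± 3.47 in heated and 84.4 ± 7.30 in unheated WT cells, with Adamts1 first in each. Summed TIMP FPKM was 397 ± 11.2 in heated and 427 ± 6.35 in unheated CHIP-KO cells, and 331 ± 11.9 in heated and 274 ± 1.10 in unheated WT cells. Timp2 led in all of them. These libraries measure RNA per library, so fewer cells that express a gene and less of its RNA per cell cannot be told apart.

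**Figure D1:**
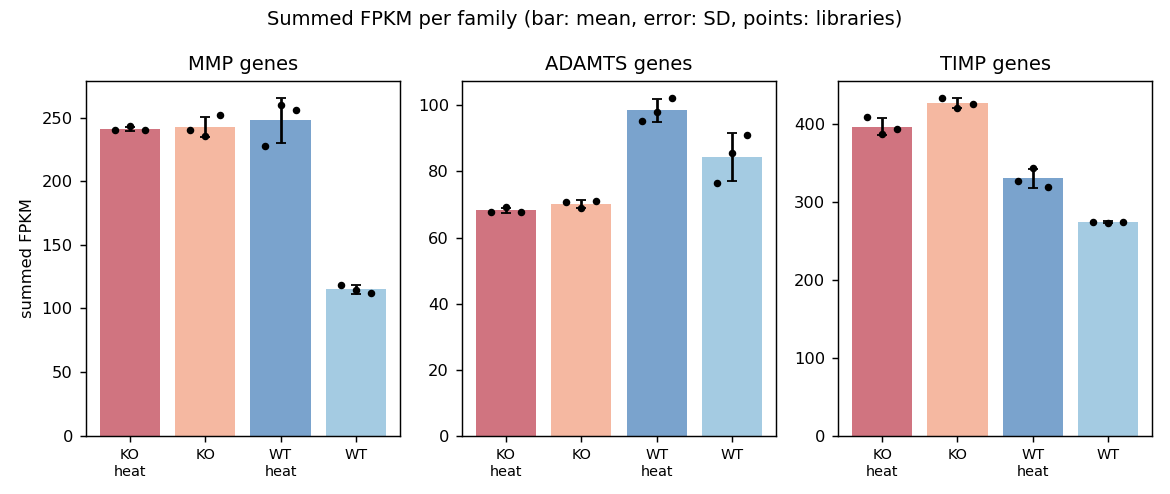
Summed FPKM of the 22 MMP, 19 ADAMTS and 4 TIMP genes (vertical axes, linear from 0) in heated CHIP-KO, unheated CHIP-KO, heated WT and unheated WT cells; bars are means, error bars SD and points the 3 libraries. The MMP sum of unheated WT libraries lies between 112 and 119 and all other libraries lie at 228 or above.

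Many MMP genes of the mouse sit side by side on chromosome 9. On GRCm38, 9 members lie between positions 7272514 and 7699585 with no other protein-coding gene between them: Mmp13, Mmp12, Mmp1b, Mmp3, Mmp10, Mmp8, Mmp27, Mmp20 and Mmp7. They code for a collagenase (Mmp13), stromelysins (Mmp3 and Mmp10), matrilysin (Mmp7), macrophage elastase (Mmp12) and enamelysin (Mmp20), among others. Of the 9, 5 were at 0 throughout, and over the 12 libraries Mmp3 had 539 fragments, Mmp13 151, Mmp10 68 and Mmp27 7. Promoter windows of 300 bases (250 before to 50 after the RefSeq start, GRCm38.p6) were found for 31 of the 45 genes, 34 windows in all. The windows of the 3 block members with most fragments are shown because all 3 hold the AP-1 motif TGANTCA (N is any base), the site of Fos and Jun dimers. That of Mmp14 (GRCm38.p6, plus strand, chr14:54431348-54431647) is shown for contrast. Mmp3 lies at chr9:7445572-7445871, Mmp10 at chr9:7502092-7502391 and Mmp13 at chr9:7272264-7272563, all on the plus strand. Capitals mark the AP-1 motif and, in Mmp14, a pair of adjoining GC boxes (GGGCGG), the site of SP1.
Mmp3: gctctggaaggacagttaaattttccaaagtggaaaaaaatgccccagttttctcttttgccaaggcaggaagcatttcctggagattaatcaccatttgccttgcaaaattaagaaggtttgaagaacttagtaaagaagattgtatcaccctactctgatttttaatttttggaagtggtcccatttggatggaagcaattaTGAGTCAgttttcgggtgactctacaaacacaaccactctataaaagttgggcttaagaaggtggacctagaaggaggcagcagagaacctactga
Mmp10: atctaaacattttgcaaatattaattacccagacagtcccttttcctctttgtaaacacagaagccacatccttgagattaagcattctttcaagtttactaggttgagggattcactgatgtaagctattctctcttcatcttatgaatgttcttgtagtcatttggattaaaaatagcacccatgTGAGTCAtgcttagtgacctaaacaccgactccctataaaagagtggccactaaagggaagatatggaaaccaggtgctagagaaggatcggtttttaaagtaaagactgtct
Mmp13: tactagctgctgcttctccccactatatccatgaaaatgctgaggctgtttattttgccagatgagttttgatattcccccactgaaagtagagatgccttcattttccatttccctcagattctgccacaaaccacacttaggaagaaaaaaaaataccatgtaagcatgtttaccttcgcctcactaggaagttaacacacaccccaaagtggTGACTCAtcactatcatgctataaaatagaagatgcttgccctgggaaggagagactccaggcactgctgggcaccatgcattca
Mmp14: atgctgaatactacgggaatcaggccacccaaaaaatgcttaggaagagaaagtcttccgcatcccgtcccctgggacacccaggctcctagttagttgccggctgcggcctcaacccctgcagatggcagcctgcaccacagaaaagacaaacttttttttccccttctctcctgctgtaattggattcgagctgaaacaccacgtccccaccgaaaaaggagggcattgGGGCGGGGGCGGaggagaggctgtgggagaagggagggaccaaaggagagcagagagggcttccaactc
The motif begins 46 bases before the RefSeq start in Mmp3, 63 before it in Mmp10 and 35 before it in Mmp13. Searched on both strands, TGANTCA was in 7 of the 34 member windows, all 7 among the 11 windows of the chromosome 9 block and none among the 23 others, and in 7.81% of the 32851 windows of all genes. Apart from the windows shown, it was in a window each of Mmp1b, Mmp7, Mmp12 and Mmp20, all at 0 in every library. The windows of Mmp8 and Mmp27 lacked it. A TATA box (TATAAA) was in 8 of the 11 block windows and 2 of the 23 others, and in 13.6% of all windows. The GC box was in none of the 11 and in 18 of the 23, and in 35.7% of all. AGGAAG, the PEA3 motif of ETS factors, was in 15 of the 34 (35.4% of all windows). The heat shock element core GAANNTTC was in 3 of the 34, those of Adamts2, Mmp10 and Mmp7 (7.86% of all). These are letter matches, and binding was not measured.

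With 1 hour of heat, most of the 21 genes rose in WT cells. In CHIP-KO cells 1 of the 21 was called higher (Mmp23) and 2 lower (Mmp11 and Mmp19), where 8.65% of all genes were called higher and 11.4% lower, so the share of members called was near that of all genes. That count of 3 was 6 with equal-sum scaling, with the CHIP-KO groups alone and without replicates 1 of both WT groups, 11 with library weights, 1 without unheated CHIP-KO replicate 3 and 5 without heated WT replicate 1. In WT cells 16 were called higher and 1 lower (Adamts5), where 28.1% of all genes were higher and 30.5% lower. Adamts1, Mmp15, Timp1 and Timp3 were not called in WT cells. The median log2 change of the 21 was -0.0037 in CHIP-KO cells (-0.0018 over all genes) and 0.73 in WT cells (-0.016 over all genes). The difference between these heat responses was tested as an interaction, the heat change in CHIP-KO minus that in WT. It was called for 15 of the 21, negative in 14 and positive in Adamts5, where 17.3% of all genes were called negative and 17.9% positive. The median interaction of the 21 was -0.67, and -0.0029 over all genes.

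**Figure D2:**
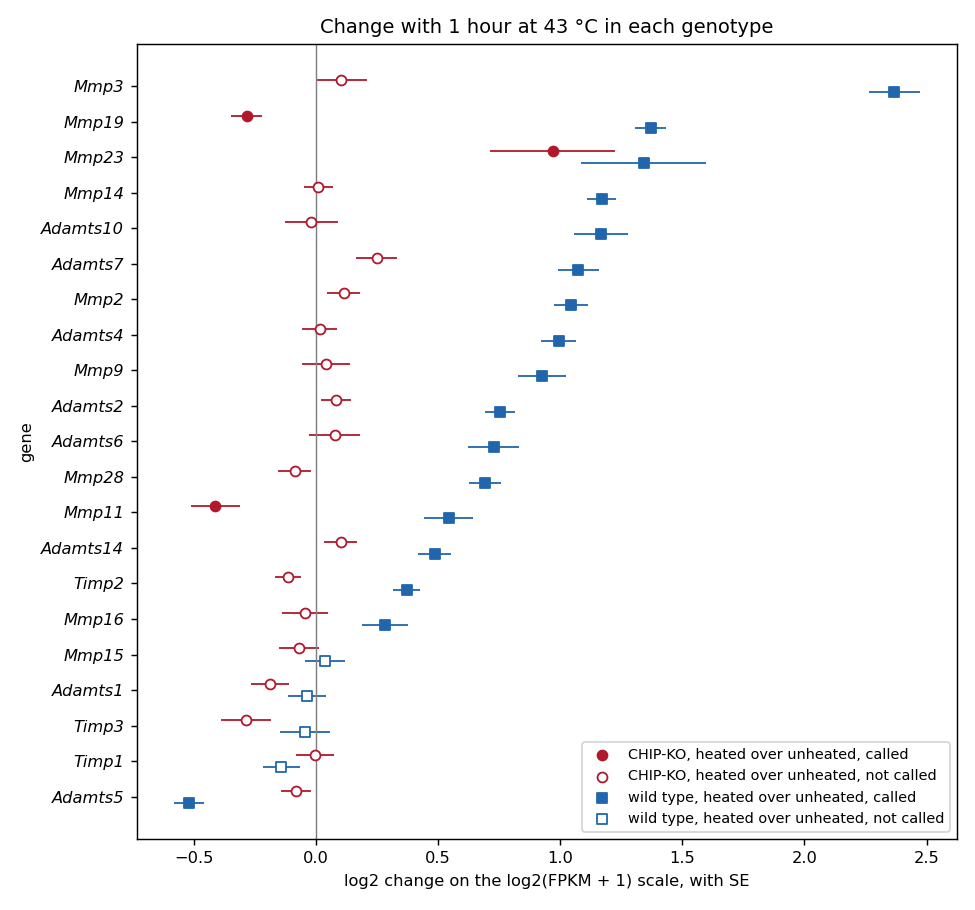
Log2 change with heat (horizontal axis, log2(FPKM + 1) scale, bars are SE) for the 21 genes that entered the fit, in CHIP-KO cells (red circles, upper of each pair) and WT cells (blue squares, lower); filled symbols were called. WT changes run from -0.52 in Adamts5 to 2.37 in Mmp3, and 18 of the 21 CHIP-KO changes were not called.

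Among the gelatinases, which cut denatured collagen and basement membrane collagen, Mmp2 showed the widest gap between the genotypes among the 21. Mmp2 (chromosome 8, 92827291 to 92853420, plus strand) stood at 90.1, 91.1 and 89.8 FPKM in heated and 80.8, 81.3 and 88.5 FPKM in unheated CHIP-KO cells, and 6.03, 6.44 and 5.47 FPKM in heated and 2.09, 2.52 and 2.54 FPKM in unheated wild-type cells. Every CHIP-KO library lay above every WT library, and every heated WT library above every unheated one. CHIP-KO cells had 35.1 times the mean FPKM of WT cells without heat (log2 change 4.64, SE 0.069, adjusted p = 2.53e-12) and 15.1 times with heat (log2 change 3.71, SE 0.069, adjusted p = 1.33e-11). Heat raised Mmp2 2.51-fold in WT cells (log2 change 1.04, SE 0.069, adjusted p = 4.62e-07), while the change in CHIP-KO cells was not called (log2 change 0.11, SE 0.069, adjusted p = 0.28). Mmp9, the other gelatinase, stood at 2.09, 2.21 and 1.92 FPKM in heated and 1.93, 2.08 and 1.94 FPKM in unheated CHIP-KO cells, and 1.43, 1.76 and 1.70 FPKM in heated and 0.592, 0.260 and 0.319 FPKM in unheated wild-type cells. Unheated WT libraries were the low ones and did not overlap any other group. Mmp9 rose 4.18-fold with heat in WT cells (log2 change 0.93, SE 0.098, adjusted p = 1.52e-05) and was 5.08 times as high in CHIP-KO as in WT cells without heat (log2 change 1.11, SE 0.098, adjusted p = 3.89e-06). With a pseudocount of 0.1 in place of 1, these log2 changes of Mmp9 were 1.87 and 2.15. With heat, its difference between genotypes was not called (log2 change 0.22, SE 0.098, adjusted p = 0.0898), but it was without unheated WT replicate 1 (adjusted p = 0.0361) and with library weights (adjusted p = 0.00518).

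Of the membrane-type MMPs, which are anchored at the cell surface, Mmp14 was the dominant one. MMP14 cuts collagen itself and, together with TIMP2, activates the MMP2 precursor. Mmp14 (chromosome 14, 54431612 to 54445364, plus strand) stood at 108, 106 and 108 FPKM in heated and 107, 103 and 109.7 FPKM in unheated CHIP-KO cells, and 158, 184 and 179 FPKM in heated and 78.1, 77.6 and 73.9 FPKM in unheated wild-type cells. Heated WT libraries were the highest, unheated WT libraries the lowest, and CHIP-KO libraries lay between them whether heated or not. Heat raised it 2.27-fold in WT cells (log2 change 1.17, SE 0.060, adjusted p = 7.72e-08), with log2 change 0.0090, SE 0.060, adjusted p = 0.94 in CHIP-KO cells. Without heat it was higher in CHIP-KO than in WT cells (log2 change 0.47, SE 0.060, adjusted p = 6.63e-05), and with heat it was lower (log2 change -0.69, SE 0.060, adjusted p = 4.32e-06). Mmp15 and Mmp16, which code for close relatives of MMP14, were near the limit of 1 FPKM and differed in opposite directions. Each entered the fit only through the genotype in which it was high, so its differences between genotypes are given as a description. Mmp15 averaged 0.580 ± 0.0392 FPKM in heated and 0.657 ± 0.0780 in unheated CHIP-KO cells, against 1.04 ± 0.0869 in heated and 0.984 ± 0.0402 in unheated WT cells (SD, n = 3 each), and was called lower in CHIP-KO both with heat (adjusted p = 0.00395) and without (adjusted p = 0.0214). Leaving out unheated CHIP-KO replicate 1 or 2 or unheated WT replicate 2 ended the call without heat (adjusted p = 0.0591, 0.0766 and 0.0646). Mmp16 averaged 0.961 ± 0.0521 FPKM in heated and 1.02 ± 0.116 in unheated CHIP-KO cells, against 0.521 ± 0.114 in heated and 0.247 ± 0.0167 in unheated WT cells (SD, n = 3 each), and was called higher in CHIP-KO with heat (adjusted p = 0.00807) and without (adjusted p = 0.0001). Its rise with heat in WT cells (adjusted p = 0.0219) was not called without heated WT replicate 1 or 3 or unheated WT replicate 2 (adjusted p = 0.0507, 0.0729 and 0.0529), nor without replicates 1 of both WT groups together (adjusted p = 0.0872). Its interaction was not called (adjusted p = 0.076), but it was without heated WT replicate 2 (adjusted p = 0.0385), with a pseudocount of 0.1 (adjusted p = 0.0368), with library weights (adjusted p = 0.00635) and with voom (adjusted p = 0.00536). That pseudocount gave log2 differences between CHIP-KO and WT of 0.79 heated and 1.69 unheated for Mmp16, where the values with 1 were 0.37 and 0.70.

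Mmp3, which codes for stromelysin-1, a protease of broad range that also activates other MMP precursors, had the largest heat change among the 21. It stood at 0.370, 0.318 and 0.191 FPKM in heated and 0.155, 0.103 and 0.359 FPKM in unheated CHIP-KO cells, and 5.01, 4.42 and 4.71 FPKM in heated and 0.106, 0.0567 and 0.157 FPKM in unheated wild-type cells. Heated WT libraries alone were above 1 FPKM, so the differences of Mmp3 from the other groups are given as a description. Unheated CHIP-KO libraries overlapped both heated CHIP-KO and unheated WT libraries, and heated CHIP-KO libraries lay above unheated WT libraries. The heated WT mean was 44.3 times the unheated WT mean (log2 change 2.37, SE 0.11, adjusted p = 3.08e-08). Its change with heat in CHIP-KO cells was not called (log2 change 0.10, SE 0.11, adjusted p = 0.536). Heated CHIP-KO cells had 0.0621 times the FPKM of heated WT cells (log2 change -2.14, SE 0.11, adjusted p = 4.43e-08), and the interaction was -2.26 (SE 0.15, adjusted p = 1.83e-06). With a pseudocount of 0.1, the WT heat change was 4.57 on the log2 scale and the difference between heated CHIP-KO and heated WT cells was -3.64. Mmp10, which codes for stromelysin-2 and lies next to Mmp3 in the block apart from a gene annotated as a pseudogene, stayed below the filter. It had 0, 4 and 2 fragments in heated and 2, 2 and 1 in unheated CHIP-KO libraries, and 21, 13 and 18 in heated and 2, 1 and 2 in unheated WT libraries. Heated WT libraries again stood apart from all others. In the fit without the filter on low values, Mmp10 was called higher with heat in WT cells (adjusted p = 2.89e-05) and lower in heated CHIP-KO than in heated WT cells (adjusted p = 3.97e-05). Mmp10 was named after its values were seen, so these calls are a description and support nothing further. Mmp13, the collagenase at the other end of the block from Mmp7, had 20, 27 and 11 fragments in heated and 17, 22 and 21 in unheated CHIP-KO libraries, and 10, 12 and 9 in heated and 1, 0 and 1 in unheated WT libraries. Mmp13 differed from Mmp3 and Mmp10 in that unheated CHIP-KO libraries also had it, and unheated WT libraries alone were near 0.

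Mmp11 and Mmp19 changed in opposite directions with heat in the genotypes. Mmp11 codes for stromelysin-3, an MMP activated inside the cell by furin. It stood at 25.5, 30.2 and 27.8 FPKM in heated and 37.6, 36.8 and 37.4 FPKM in unheated CHIP-KO cells, and 35.0, 45.1 and 45.8 FPKM in heated and 30.9, 27.0 and 27.1 FPKM in unheated wild-type cells. In CHIP-KO cells every heated library lay below every unheated one (log2 change -0.41, SE 0.10, adjusted p = 0.0148), and in WT cells every heated library lay above every unheated one (log2 change 0.54, SE 0.10, adjusted p = 0.000748). The fall in CHIP-KO cells was not called without heated CHIP-KO replicate 1 (adjusted p = 0.055) or without unheated CHIP-KO replicate 3 (adjusted p = 0.0501). Mmp19 codes for a secreted MMP with activity on basement membrane proteins, and its exons overlap those of Tmem198b, described below. Mmp19 stood at 4.19, 3.81 and 3.61 FPKM in heated and 4.75, 5.01 and 4.99 FPKM in unheated CHIP-KO cells, and 9.28, 9.65 and 9.97 FPKM in heated and 2.89, 3.05 and 3.40 FPKM in unheated wild-type cells. It fell with heat in CHIP-KO cells (log2 change -0.28, SE 0.064, adjusted p = 0.0103) and rose 3.09-fold with heat in WT cells (log2 change 1.37, SE 0.064, adjusted p = 3.64e-08). The interaction was -0.96 (SE 0.14, adjusted p = 0.000408) for Mmp11 and -1.65 (SE 0.090, adjusted p = 5.49e-07) for Mmp19. Both were higher in CHIP-KO than in WT cells without heat and lower with heat, with log2 changes of 0.39 and -0.57 for Mmp11 and of 0.53 and -1.13 for Mmp19, all called.

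Mmp28, which codes for epilysin, stood at 4.66, 5.12 and 5.07 FPKM in heated and 5.41, 4.81 and 5.76 FPKM in unheated CHIP-KO cells, and 4.76, 4.31 and 4.39 FPKM in heated and 2.29, 2.41 and 2.48 FPKM in unheated wild-type cells. Unheated WT libraries were again the low group, and heat raised Mmp28 there (log2 change 0.69, SE 0.067, adjusted p = 7.91e-06). Its change with heat in CHIP-KO cells was not called (log2 change -0.087, SE 0.067, adjusted p = 0.402). Mmp23, which codes for a membrane-tethered MMP without a hemopexin domain, stood at 2.46, 1.67 and 1.72 FPKM in heated and 0.308, 0.633 and 0.571 FPKM in unheated CHIP-KO cells, and 4.58, 1.69 and 1.85 FPKM in heated and 0.380, 0.131 and 0.684 FPKM in unheated wild-type cells. It was higher in heated than in unheated libraries in both genotypes, 3.87-fold in CHIP-KO cells (log2 change 0.97, SE 0.26, adjusted p = 0.0218) and 6.80-fold in WT cells (log2 change 1.34, SE 0.26, adjusted p = 0.000949), and heated WT replicate 1 was the highest. With a pseudocount of 0.1 these log2 changes were 1.79 in CHIP-KO and 2.52 in WT cells. Mmp23 entered the fit through heated libraries alone, so its heat changes are given as a description. The call in CHIP-KO cells was lost without heated CHIP-KO replicate 1 (adjusted p = 0.0748), without unheated CHIP-KO replicate 1 (0.0799) or 3 (0.0566), and with no filter on low values (0.0551). Its interaction was not called (adjusted p = 0.456), and neither was its difference between genotypes, with heat (adjusted p = 0.458) or without (adjusted p = 0.741).

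**Figure D3:**
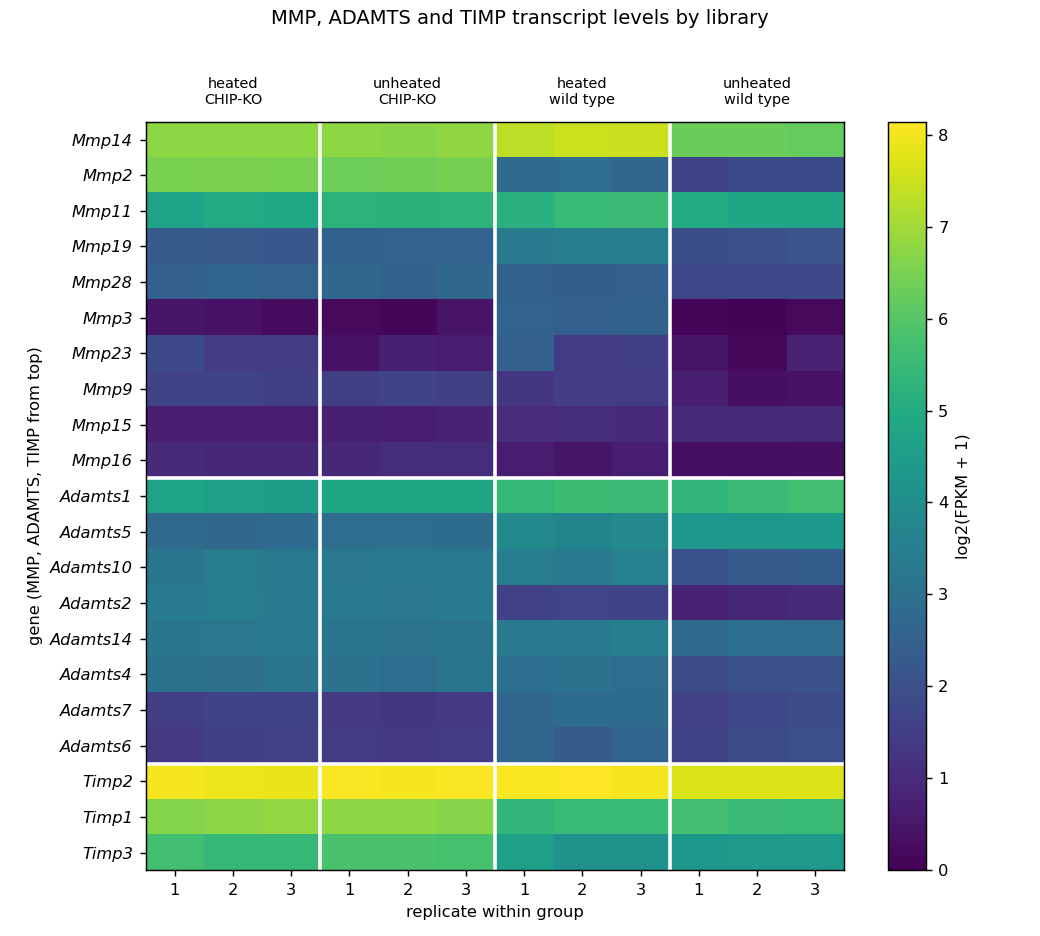
Log2(FPKM + 1) (colour) of the 21 genes that entered the fit, 1 row a gene with MMP, ADAMTS and TIMP genes from top to bottom, and 1 column a library in heated CHIP-KO, unheated CHIP-KO, heated WT and unheated WT cells. Mmp2 differs most between the genotypes, and the Mmp3 row is bright in the heated WT libraries alone.

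Adamts2, Adamts3 and Adamts14 code for the procollagen N-proteinases, and their summed level was 18.0 ± 0.795 FPKM in heated and 16.8 ± 0.510 in unheated CHIP-KO cells, and 11.6 ± 0.761 in heated and 7.32 ± 0.635 in unheated WT cells (SD, n = 3 each). Adamts2 (chromosome 11, 50602084 to 50807573, plus strand) stood at 8.92, 9.98 and 9.46 FPKM in heated and 8.89, 8.45 and 9.27 FPKM in unheated CHIP-KO cells, and 2.05, 2.24 and 2.16 FPKM in heated and 0.768, 0.898 and 0.943 FPKM in unheated wild-type cells. Every CHIP-KO library lay above every WT library. The ratio of CHIP-KO to WT was 10.2 without heat (log2 change 2.40, SE 0.062, adjusted p = 1.54e-10) and 4.40 with heat (log2 change 1.73, SE 0.062, adjusted p = 3.86e-09). Heat raised Adamts2 2.47-fold in WT cells (log2 change 0.75, SE 0.062, adjusted p = 2.41e-06), and in CHIP-KO cells its change was not called (log2 change 0.082, SE 0.062, adjusted p = 0.393). Adamts14 was more even, at 8.46 ± 0.307 FPKM in heated and 7.82 ± 0.192 in unheated CHIP-KO cells and 9.43 ± 0.752 in heated and 6.45 ± 0.553 in unheated WT cells (SD, n = 3 each). It rose with heat in WT cells (adjusted p = 0.000106). Its difference between heated CHIP-KO and heated WT cells was not called (log2 change -0.14, SE 0.068, adjusted p = 0.125), but it was without replicates 1 of both WT groups (adjusted p = 0.0413) and with library weights (adjusted p = 0.000491). Adamts3 was found in CHIP-KO cells alone. It had 15, 17 and 9 fragments in heated and 25, 22 and 16 in unheated CHIP-KO libraries, and 0 in each of the 6 WT libraries. Set against a floor of 3 fragments over the WT group, this is at least 11.7-fold higher with heat and at least 15.7-fold higher without, where the floor covers counting error only.

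Adamts1, Adamts4 and Adamts5 code for proteases that cut aggrecan and versican, and they did not move together. Adamts1 was the most abundant ADAMTS gene, at 25.2, 23.5 and 22.0 FPKM in heated and 27.4, 26.7 and 26.9 FPKM in unheated CHIP-KO cells, and 41.6, 47.0 and 45.3 FPKM in heated and 41.1, 46.1 and 50.5 FPKM in unheated wild-type cells. CHIP-KO libraries were all lower than WT libraries, both heated (log2 change -0.89, SE 0.077, adjusted p = 4.16e-06) and unheated (log2 change -0.74, SE 0.077, adjusted p = 1.43e-05). No heat change of Adamts1 was called, with log2 change -0.19, SE 0.077, adjusted p = 0.112 in CHIP-KO and log2 change -0.036, SE 0.077, adjusted p = 0.708 in WT cells. The change in CHIP-KO cells was called without replicates 1 of both WT groups (adjusted p = 0.0242), with equal-sum scaling (0.0316), with the CHIP-KO groups alone (0.035) and with library weights (0.00242). Adamts5 lies 53.1 kb from Adamts1 on chromosome 16 and stood at 6.10, 5.74 and 6.24 FPKM in heated and 6.50, 6.45 and 6.32 FPKM in unheated CHIP-KO cells, and 13.9, 11.7 and 13.3 FPKM in heated and 18.3, 19.1 and 19.5 FPKM in unheated wild-type cells. It too was lower in CHIP-KO than in WT cells, with heat (log2 change -0.99, SE 0.061, adjusted p = 3.02e-07) and without (log2 change -1.43, SE 0.061, adjusted p = 9.19e-09). Adamts5 was the single member called lower with heat in WT cells (log2 change -0.52, SE 0.061, adjusted p = 3.28e-05). Adamts4 went the other way, at 7.29, 7.05 and 7.95 FPKM in heated and 7.31, 6.71 and 8.04 FPKM in unheated CHIP-KO cells, and 6.80, 7.27 and 6.53 FPKM in heated and 2.74, 3.09 and 3.02 FPKM in unheated wild-type cells. Unheated WT libraries were low and the other groups overlapped. Adamts4 was higher in CHIP-KO than in WT cells without heat (log2 change 1.08, SE 0.071, adjusted p = 3.37e-07), its difference with heat was not called (log2 change 0.10, SE 0.071, adjusted p = 0.289), and it rose 2.33-fold with heat in WT cells (log2 change 0.99, SE 0.071, adjusted p = 8.87e-07).

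Adamts6 and Adamts10 code for proteases tied to fibrillin microfibrils, and Adamts7 and Adamts12 for proteases that cut cartilage oligomeric matrix protein. Adamts10 stood at 8.03, 9.68 and 8.74 FPKM in heated and 8.64, 9.41 and 8.74 FPKM in unheated CHIP-KO cells, and 9.60, 8.70 and 11.2 FPKM in heated and 3.12, 4.08 and 4.31 FPKM in unheated wild-type cells, and again unheated WT libraries alone were low. It rose 2.57-fold with heat in WT cells (log2 change 1.17, SE 0.11, adjusted p = 5.91e-06) and was 2.33 times as high in CHIP-KO as in WT cells without heat (log2 change 1.05, SE 0.11, adjusted p = 1.43e-05). Adamts6 stood at 1.54, 1.89 and 1.96 FPKM in heated and 1.73, 1.53 and 1.67 FPKM in unheated CHIP-KO cells, and 5.39, 4.15 and 5.29 FPKM in heated and 2.21, 2.62 and 2.93 FPKM in unheated wild-type cells. Its CHIP-KO libraries lay below all WT libraries, with log2 changes of -1.09 with heat (adjusted p = 1.01e-05) and -0.43 without (adjusted p = 0.00531). It rose 1.91-fold with heat in WT cells (log2 change 0.73, SE 0.10, adjusted p = 0.000135). Adamts7 stood at 1.86, 2.10 and 2.11 FPKM in heated and 1.62, 1.42 and 1.59 FPKM in unheated CHIP-KO cells, and 5.37, 6.40 and 6.35 FPKM in heated and 2.07, 2.36 and 2.59 FPKM in unheated wild-type cells. Heated WT libraries were the highest, and heat raised Adamts7 2.58-fold there (log2 change 1.07, SE 0.083, adjusted p = 1.54e-06). Adamts7 was lower in CHIP-KO than in WT cells with heat (log2 change -1.22, SE 0.083, adjusted p = 6.55e-07) and without (log2 change -0.39, SE 0.083, adjusted p = 0.00252). In CHIP-KO cells its heat change was not called (log2 change 0.25, adjusted p = 0.0575), but with the replicate number as a block it was (adjusted p = 0.047), and so it was without replicate 1 of heated WT (0.0293), of unheated WT (0.0407) or of both (0.0141). Adamts12 stayed below 1 FPKM, at 77, 55 and 50 fragments in heated and 81, 81 and 95 in unheated CHIP-KO libraries, and 86, 80 and 86 in heated and 27, 18 and 33 in unheated WT libraries. Scaled between libraries, Adamts12 was at 0.254 ± 0.0262 FPKM in heated and 0.315 ± 0.0526 in unheated CHIP-KO cells, and 0.422 ± 0.0120 in heated and 0.128 ± 0.0384 in unheated WT cells (SD, n = 3 each).

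Of the inhibitors, Timp1 and Timp3 were higher in CHIP-KO cells with or without heat, and Timp2 was lowest in unheated WT cells. Timp1 (chromosome X, 20870166 to 20874735, plus strand), an inducible inhibitor of many MMPs, stood at 97.2, 104 and 113 FPKM in heated and 107, 108 and 99.7 FPKM in unheated CHIP-KO cells, and 39.6, 45.3 and 43.3 FPKM in heated and 51.7, 45.7 and 44.4 FPKM in unheated wild-type cells. Each CHIP-KO library was above each WT library, 2.45-fold with heat (log2 change 1.27, SE 0.076, adjusted p = 2.26e-07) and 2.22-fold without (log2 change 1.13, SE 0.076, adjusted p = 3.85e-07). No change with heat was called for it in CHIP-KO (log2 change -0.0037, SE 0.076, adjusted p = 0.982) or WT cells (log2 change -0.14, SE 0.076, adjusted p = 0.131). Timp2, the inhibitor that also takes part in activation of the MMP2 precursor, stood at 262, 241 and 239.6 FPKM in heated and 273, 259 and 273 FPKM in unheated CHIP-KO cells, and 265, 281 and 259.9 FPKM in heated and 204, 208 and 210.3 FPKM in unheated wild-type cells. Unheated WT libraries were the lowest and the other groups overlapped. It rose with heat in WT cells (log2 change 0.37, SE 0.055, adjusted p = 0.000162) and was higher in CHIP-KO than in WT cells without heat (log2 change 0.37, SE 0.055, adjusted p = 0.000217), while neither its heat change in CHIP-KO cells (log2 change -0.11, SE 0.055, adjusted p = 0.172) nor its difference with heat (log2 change -0.12, SE 0.055, adjusted p = 0.111) was called. Timp3, the matrix-bound inhibitor, stood at 49.8, 42.2 and 41.9 FPKM in heated and 54.6, 54.7 and 54.0 FPKM in unheated CHIP-KO cells, and 23.0, 17.2 and 17.0 FPKM in heated and 19.1, 19.7 and 19.8 FPKM in unheated wild-type cells. CHIP-KO libraries were all above WT libraries, 2.34-fold with heat (log2 change 1.19, SE 0.10, adjusted p = 3.88e-06) and 2.79-fold without (log2 change 1.43, SE 0.10, adjusted p = 6.45e-07). In CHIP-KO cells every heated Timp3 value was below every unheated one without being called (adjusted p = 0.0744). That change was called without heated CHIP-KO replicate 1, where it was -0.36 on the log2 scale, and without heated WT replicate 1 (adjusted p = 0.0446 and 0.00723). In WT cells the heat change of Timp3 was -0.044 and not called (adjusted p = 0.734). Without heated WT replicate 1, the highest of its group, it was -0.18 (adjusted p = 0.0436). Timp4, a TIMP of more restricted expression, was nearly absent, with 0, 0 and 2 fragments in heated and 0 in each unheated CHIP-KO library, and 0, 1 and 1 in heated and 0 in each unheated WT library.

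Set side by side, the genotypes differed in most of the 21 genes, and which way depended on heat for some. With heat, 5 were called higher in CHIP-KO than in WT cells (Mmp2, Mmp16, Adamts2, Timp1 and Timp3) and 9 lower (Adamts1, Adamts5, Adamts6, Adamts7, Mmp3, Mmp11, Mmp14, Mmp15 and Mmp19), where 23.3% of all genes were called higher and 19.1% lower. Without heat, 14 were called higher and 5 lower (Adamts1, Adamts5, Adamts6, Adamts7 and Mmp15), where 23.9% of all genes were called higher and 24.5% lower. The median log2 change of the 21 was -0.14 with heat (0.013 over all genes) and 0.47 without (-0.012 over all genes). Mmp11, Mmp14 and Mmp19 were called in both, lower in CHIP-KO with heat and higher without it.

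**Figure D4:**
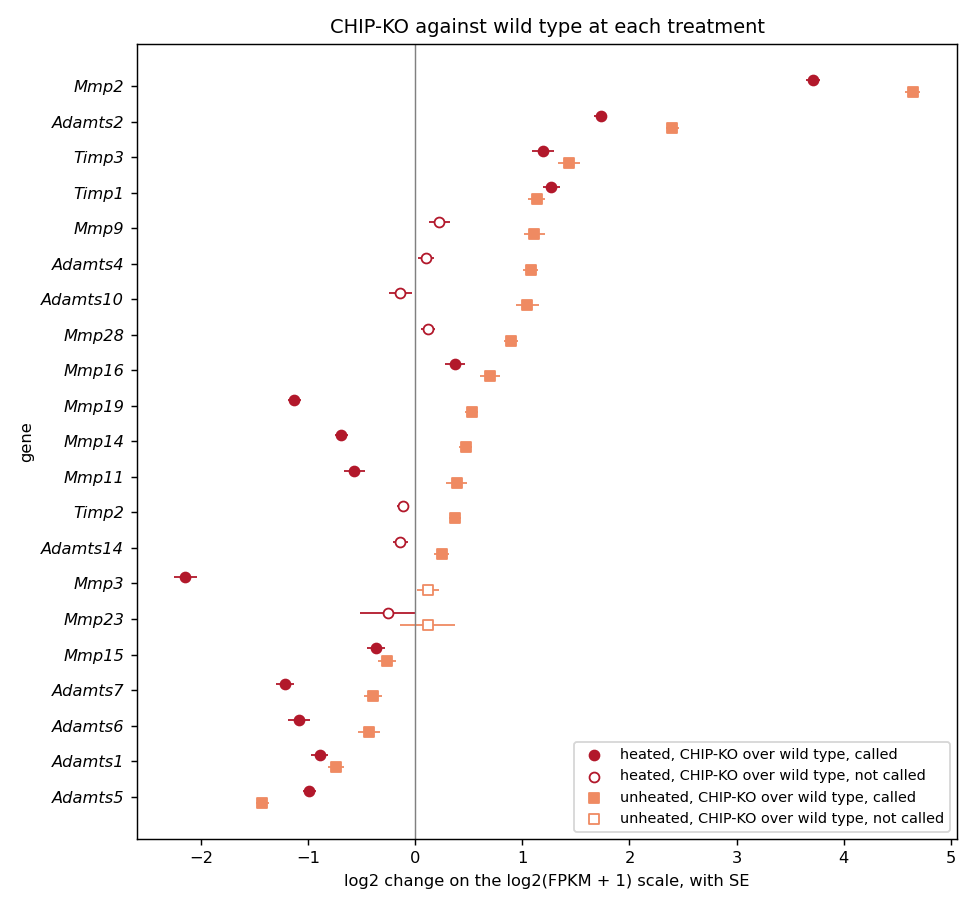
Log2 change of CHIP-KO over WT cells (horizontal axis, log2(FPKM + 1) scale, bars are SE) for the 21 genes, heated (red circles, upper of each pair) and unheated (orange squares, lower); filled symbols were called. Mmp2 lies farthest right, at 3.71 heated and 4.64 unheated, and Mmp11, Mmp14 and Mmp19 lie left of 0 heated and right of it unheated.

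Of the 24 genes below the filter, those with at least 10 fragments over both groups of a comparison were described by whether the FPKM values of the groups overlapped. An exact permutation test of 3 against 3 libraries cannot go below p = 0.1, so no p of that test is given. With heat in CHIP-KO cells, 4 of 12 such genes were higher without overlap (Adamts16, Mmp21, Mmp24 and Mmp25) and none lower, where 23.9% of all such weakly expressed genes were higher and 7.83% lower. With heat in WT cells, 9 of 11 were higher without overlap (Adamts9, Adamts12, Adamts16, Adamts17, Mmp10, Mmp13, Mmp21, Mmp24 and Mmp25) and none lower, where 37.5% were higher and 5.35% lower. Between heated CHIP-KO and heated WT cells, 1 of 12 was higher (Adamts3) and 5 were lower (Adamts9, Adamts12, Adamts16, Adamts17 and Mmp10), where 9.94% were higher and 18.7% lower. Between unheated CHIP-KO and unheated WT cells, 7 of 11 were higher (Adamts3, Adamts12, Adamts17, Adamts20, Mmp13, Mmp17 and Mmp25) and 2 lower (Adamts9 and Adamts16), where 21.2% were higher and 13% lower. Adamts9, which codes for a protease that cuts aggrecan and versican, had 6, 4 and 8 fragments in heated and 1, 8 and 6 in unheated CHIP-KO libraries, and 190, 172 and 223 in heated and 17, 33 and 50 in unheated WT libraries. Heated WT cells were thus far above all other groups, and CHIP-KO cells were near 0 in both states. In the limma fit without the filter, Adamts9 was called higher with heat in WT cells (adjusted p = 3.12e-06) and lower in heated CHIP-KO than heated WT cells (adjusted p = 7.89e-07). Adamts9 was named after its values were seen, so these calls are a description and support nothing further. Of the 9 genes higher without overlap with heat in WT cells, Mmp21 and Mmp24 were not called in that fit (adjusted p = 0.0532 and 0.1). Mmp25, which codes for a lipid-anchored membrane-type MMP, had 29, 25 and 33 fragments in heated and 18, 14 and 8 in unheated CHIP-KO libraries, and 27, 12 and 26 in heated and 0, 1 and 3 in unheated WT libraries. Of the 6 genes at 0 throughout, the floor of 3 fragments over a group allows at most 0.0513 FPKM, for Mmp7 in heated WT cells.

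**Figure D5:**
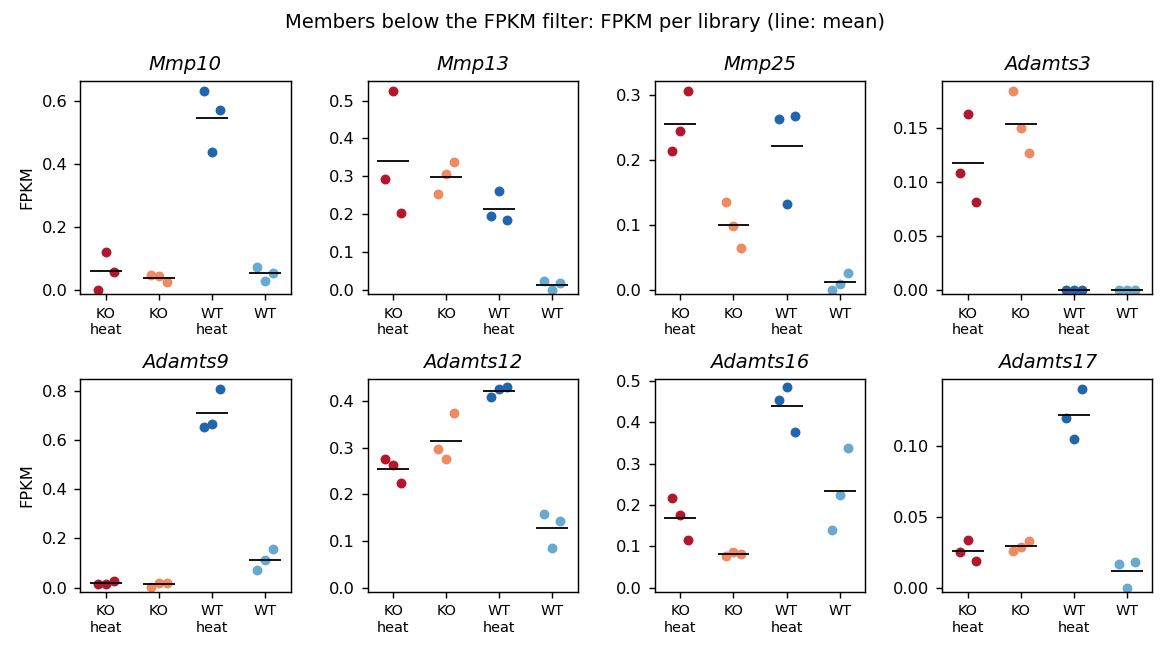
FPKM per library (points) and group mean (line) of 8 genes that stayed below the filter, in heated CHIP-KO, unheated CHIP-KO, heated WT and unheated WT cells; each panel has its own linear axis. Mmp10 and Adamts9 are high in heated WT libraries alone, and Adamts3 is at 0 in all WT libraries.

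Several members share exon sequence with a gene on the other strand, and no source used here says whether the counting used strand. Among the partners that passed 1 FPKM in some library were Tbc1d2b (with Adamts7), Chchd10 (Mmp11), Tmem198b (Mmp19), BC029722 (Mmp24) and 1700020L24Rik (Mmp28). Tmem198b, beside Mmp19, fell with heat in CHIP-KO cells (log2 change -0.51, adjusted p = 0.00727), as Mmp19 did, but its change in WT cells was not called (adjusted p = 0.266). Without heat Tmem198b was higher in CHIP-KO than in WT cells (log2 change 0.37, adjusted p = 0.0145), as Mmp19 was. With heat its difference between genotypes was not called (adjusted p = 0.984). Tbc1d2b and 1700020L24Rik rose with heat in WT cells, as their partners did (log2 changes 0.48 and 0.50, adjusted p = 0.000206 and 0.0138). Chchd10 also rose with heat in WT cells (log2 change 0.59, adjusted p = 0.00706) and lay at 0.552 to 1.88 FPKM, below Mmp11. By group means, 1700020L24Rik was below Mmp28 in every group, while Tmem198b was above Mmp19 and BC029722 above Mmp24. Tmem198b averaged 10.6 FPKM in heated and 15.4 in unheated CHIP-KO cells, and 10.6 in heated and 11.7 in unheated WT cells. Tbc1d2b was above Adamts7 in all groups but heated WT. The part of shared fragments in these values was not tested.

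Genes around these proteases were described from lists of named genes. Of 12 ETS and AP-1 factors that bind MMP promoters, 6 rose and 2 fell with heat in CHIP-KO cells, and 7 rose and 2 fell in WT cells. Among the 12, Fosb reached 1 FPKM in heated libraries alone, so its heat changes are given as a description. Over all genes the shares called with heat were 8.65% higher and 11.4% lower in CHIP-KO cells, and 28.1% higher and 30.5% lower in WT cells. Fos, an AP-1 subunit, averaged 80.0 ± 15.8 FPKM in heated and 9.57 ± 1.59 in unheated CHIP-KO cells, and 81.6 ± 14.6 in heated and 1.82 ± 0.298 in unheated WT cells (SD, n = 3 each). Jun, its partner, averaged 959 ± 145 FPKM in heated and 50.5 ± 3.005 in unheated CHIP-KO cells, and 387 ± 54.0 in heated and 17.5 ± 1.10 in unheated WT cells (SD, n = 3 each). Both rose with heat in CHIP-KO cells (Fos log2 change 2.93, adjusted p = 2.02e-06, and Jun log2 change 4.21, adjusted p = 3.51e-09) and in WT cells (Fos log2 change 4.86, adjusted p = 7.4e-09, and Jun log2 change 4.38, adjusted p = 1.26e-09). Heated CHIP-KO cells had more Jun than heated WT cells (log2 change 1.31, adjusted p = 5.94e-06).

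Of 10 tested ADAMTS substrates, 1 rose with heat in CHIP-KO cells (Fn1, log2 change 0.49, adjusted p = 0.022), and in WT cells 6 rose and 1 fell. The shares of all genes called with heat were 8.65% higher and 11.4% lower in CHIP-KO, and 28.1% and 30.5% in WT cells. Fn1 codes for fibronectin and Col3a1 for type III collagen, and both rose with heat in WT cells (Fn1 log2 change 2.24, adjusted p = 1.85e-07, and Col3a1 log2 change 2.09, adjusted p = 1.18e-08). Between genotypes, 6 substrates were higher and 3 lower in CHIP-KO than in WT cells with heat, and 8 were higher and 2 lower without, where 23.3% and 19.1% of all genes were called with heat and 23.9% and 24.5% without. Of the 10 tested, Fbn2 reached 1 FPKM in CHIP-KO libraries alone and Comp in WT libraries alone. These counts between genotypes are thus given as a description. Col1a2, a chain of type I procollagen, which ADAMTS2 trims, averaged 598 ± 36.6 FPKM in heated and 517 ± 8.42 in unheated CHIP-KO cells, and 59.5 ± 6.11 in heated and 35.6 ± 5.07 in unheated WT cells (SD, n = 3 each). Comp, the substrate of ADAMTS7 and ADAMTS12, was lower in CHIP-KO than in WT cells with heat (log2 change -1.86, adjusted p = 4.43e-07). As Comp entered the fit through WT libraries alone, this difference is given as a description and supports nothing further. All 3 tested ADAMTS-like genes (Adamtsl3, Adamtsl4 and Adamtsl5, which lack the protease domain) rose with heat in WT cells and none was called in CHIP-KO cells, and the interaction was called negative for all 3. It was called negative for 17.3% of all genes. Of 11 tested genes of MMP activation, anchoring and clearance, 3 rose with heat in CHIP-KO cells, led by Plau, the urokinase gene (log2 change 1.38, adjusted p = 0.00492), and in WT cells 4 rose and 4 fell. Plat, the tissue plasminogen activator gene, was higher in CHIP-KO than in WT cells with heat (log2 change 0.71, adjusted p = 9.46e-07) and without (log2 change 1.80, adjusted p = 3.19e-10). Of 3 tested astacin protease and enhancer genes, Bmp1, whose product trims the carboxy-terminal propeptide of procollagens, rose with heat in CHIP-KO (log2 change 0.22, adjusted p = 0.00915) and in WT cells (log2 change 0.85, adjusted p = 1.7e-07). Of 6 tested ADAM genes, which code for membrane-bound sheddases, 2 fell with heat in CHIP-KO cells (Adam10 and Adam9), and in WT cells 1 rose (Adam15) and the same 2 fell. No interaction was called for an ADAM gene.

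Markers of the labelled cell type also differed between the genotypes. Over 10 fibroblast markers the summed level was 3271 to 3474 FPKM in heated and 2922 to 3084 in unheated CHIP-KO libraries, and 1875 to 2209.5 in heated and 1459 to 1868 in unheated WT libraries. Of 9 tested, 5 were higher and 2 lower in CHIP-KO than in WT cells with heat, and 7 were higher and 2 lower without. The lower ones were Col3a1 (log2 change -0.53, adjusted p = 0.000277) and Pdgfrb (log2 change -0.24, adjusted p = 0.00959) with heat, and S100a4 (log2 change -1.25, adjusted p = 0.0181) and Vim (log2 change -0.28, adjusted p = 0.0155) without. Among all genes, 23.3% were called higher and 19.1% lower with heat, and 23.9% and 24.5% without. Thy1 averaged 8.73 ± 0.542 FPKM in heated and 8.28 ± 0.787 in unheated CHIP-KO cells, against 0.0259 in heated and 0.00524 in unheated WT cells. Dcn, which codes for decorin, averaged 1.35 FPKM in heated and 1.31 in unheated CHIP-KO cells, against 0.0881 in heated and 0.0153 in unheated WT cells. Thy1 and Dcn were thus at or near 0 in WT cells, while Vim and Col1a1 were high in all groups. Of the 9 tested markers, Thy1 and Dcn reached 1 FPKM in CHIP-KO libraries alone. Their differences between genotypes, and the counts that include them, are thus given as a description. Lum was near 0 in every group, with its highest mean, 0.0586 FPKM, in heated CHIP-KO cells. Mmp2, Adamts2, Timp1 and Timp3 were higher in CHIP-KO cells, as were 5 of the 9 tested markers with heat and 7 without, and the part of cell makeup in their differences was not tested. Of 8 macrophage markers 1 entered the fit (Cd68), with a summed level of 8.56 to 10.9 FPKM in heated and 3.94 to 4.61 in unheated CHIP-KO libraries, and 13.4 to 15.8 in heated and 2.001 to 3.41 in unheated WT libraries, and Adgre1 and C1qa were at 0 in every library. None of 6 neutrophil, 5 endothelial and 6 epithelial markers entered the fit, their sums were at most 2.11, 0.753 and 1.19 FPKM, and Csf3r, S100a9 and Tie1 were at 0 throughout. For heat, 28.1% of all genes were called higher and 30.5% lower in WT cells, and 8.65% and 11.4% in CHIP-KO cells. Both tested mesothelial markers, Msln and Krt19, fell with heat in WT cells. Over 5 such markers the sum was 51.0 to 52.0 FPKM in heated and 36.6 to 41.5 in unheated CHIP-KO libraries, and 8.82 to 10.3 in heated and 42.1 to 46.3 in unheated WT libraries, with Wt1 and Lrrn4 at 0. All 3 of 8 chondrocyte and bone markers that entered the fit rose with heat in WT cells, and 1, Sox9, in CHIP-KO cells. The 8 summed to 38.8 to 56.5 FPKM in heated and 22.3 to 23.0 in unheated CHIP-KO libraries, and 35.2 to 46.9 in heated and 8.79 to 10.7 in unheated WT libraries, with Ibsp at 0. Both tested smooth muscle markers of 5, Acta2 and Des, rose with heat in WT cells and neither was called in CHIP-KO cells. Des reached 1 FPKM in heated WT libraries alone, so its heat changes are given as a description. These 5 summed to 61.6 to 74.6 FPKM in heated and 64.2 to 68.9 in unheated CHIP-KO libraries, and 52.6 to 71.9 in heated and 28.3 to 36.8 in unheated WT libraries. The 4 osteoclast markers summed to at most 6.39 FPKM, nearly all of it Ctsk, which rose with heat in both genotypes, and Calcr was at or near 0. Ctsk reached 1 FPKM in heated libraries alone, so its rise is given as a description. The part of these marker shifts in the heat changes was not tested.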

How the data were processed

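RNA-seq was done on 12 libraries, and per the labels' protocols poly(A) RNA was captured. The authors deposited 1 table of FPKM values with 1 column per library, in which no gene was left out for low values and 0 is a listed value. The submitters' processing notes name HISAT2 as a tool. No version of it, counting tool, strand setting or annotation is given in the sources used here. Groups and replicate numbers came from the labels. In each library 1 fragment was worth 1 fixed amount of FPKM times length. Dividing by it gave whole fragments (tolerance 0.01) in 100% of the values above 0, and their sum gave the depth. The median-of-ratios factors of the FPKM values were equal in all libraries (1.01), so from the values the deposited scaling matched that method. No 2 replicates agreed within counting noise: chi-square over its degrees of freedom was 17.6 to 26.7 where a WT replicate 1 was in the pair, 10.4 to 16.6 with heated CHIP-KO replicate 1 and 3.39 to 5.09 elsewhere. Positions are those of the table. GENCODE M21 held 54495 of its 54532 identifiers, 53585 of them at the same position, and 44 of the 45 genes described had the same position there, so the build is GRCm38.

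Genes at 1 FPKM or more in at least 3 libraries (13023) were fitted as log2(FPKM + 1) by limma 3.58.1 under R 4.3.3. The model held 1 mean for each of the 4 groups and a variance trend, and two-sided p values were Benjamini-Hochberg adjusted over all of these genes. The steps were tested on simulated data. The gene lists and the members were chosen with earlier results of these data known, and the minimum of 10 fragments for weakly expressed genes was set after the data were seen. Values per library are given for the 4 TIMP genes and, per comparison, for up to 10 members with the largest called change, a mean of at least 2 FPKM in the higher group and no overlap of groups (overlap not used for the interaction). Mmp10, Mmp13, Mmp25, Adamts3, Adamts9 and Adamts12 fell outside this rule and were named after their values were seen. Of the other genes of the pathway at most 4 per list and comparison are named by the size of their change. Marker genes and genes that overlap a member are named without regard to it. Some results on overlapping genes are not reported here. Same-numbered libraries of different groups deviated together with correlations of -0.12 to 0.33, over 0.1 in 2 of 18 pairs, so the numbers were not taken as pairs. Both of these pairs joined heated CHIP-KO and heated WT libraries, at 0.33 for replicates 1 and 0.23 for replicates 3. Those heated libraries may thus not be independent of each other. Alternatives were a pseudocount of 0.1, no filter, other scalings, library weights, a replicate block, fits of only the groups compared, voom on the recovered fragments and leaving out each library. Promoter windows are from RefSeq, GRCm38.p6. Python 3.11.15 and matplotlib 3.10.9 made the figures.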

Additional observations from a re-analysis of the deposited data

Results flagged for a closer look

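The change with heat differed between CHIP-KO and WT cells in 15 of the 21 genes that entered the fit, by limma's test of the interaction (heat change in CHIP-KO minus heat change in WT, log2 scale, 3 libraries in each group). Among MMP genes it was -2.26 (SE 0.15, adjusted p = 1.83e-06) for Mmp3, -1.65 (SE 0.090, adjusted p = 5.49e-07) for Mmp19, -1.16 (SE 0.085, adjusted p = 3.24e-06) for Mmp14 and -0.96 (SE 0.14, adjusted p = 0.000408) for Mmp11. It was -0.93 (SE 0.097, adjusted p = 4.06e-05) for Mmp2, -0.88 (SE 0.14, adjusted p = 0.000591) for Mmp9 and -0.78 (SE 0.095, adjusted p = 0.000115) for Mmp28. Among ADAMTS genes it was -1.19 (SE 0.15, adjusted p = 0.000171) for Adamts10, -0.98 (SE 0.10, adjusted p = 3.88e-05) for Adamts4, -0.83 (SE 0.12, adjusted p = 0.000323) for Adamts7 and -0.67 (SE 0.088, adjusted p = 0.000179) for Adamts2. For Adamts6 it was -0.65 (SE 0.15, adjusted p = 0.00577), and for Adamts14 -0.39 (SE 0.096, adjusted p = 0.00936). Adamts5 alone had a positive value, 0.44 (SE 0.087, adjusted p = 0.00259), and it fell with heat in WT cells while its change in CHIP-KO cells was not called. Timp2 was the one TIMP gene among them, at -0.49 (SE 0.077, adjusted p = 0.00065). Mmp11 and Mmp19 are the genes called in both genotypes in opposite directions. Mmp3 entered the fit through heated WT libraries alone, so its interaction is given as a description and supports nothing further.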

How the results depend on the processing

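Counts of called genes moved most for heat in CHIP-KO cells, where 3 genes were called. The count was 6 with every library scaled to an equal sum, 6 with the CHIP-KO groups alone, 6 without replicates 1 of both WT groups and 11 with library weights, and 1 to 5 when each library was left out in turn (1 without unheated CHIP-KO replicate 3 and 5 without heated WT replicate 1). For the other comparisons no alternative moved the count by over 1.5 times: it ranged from 16 to 25 for heat in WT cells (17 as reported), 18 to 25 for CHIP-KO against WT unheated (19), 14 to 21 heated (14) and 15 to 19 for the interaction (15), and the highest value came without the filter, where more members are tested. Of 2184 alternative values for the 21 genes over 5 comparisons, 2132 stayed on their side of the threshold, 13 lost a call and 39 gained one. The sign changed in 22, over 10 comparisons of single genes, all of them uncalled in both fits (adjusted p at least 0.361). A pseudocount of 0.1 or voom moved called log2 changes of Mmp3, Mmp9, Mmp15, Mmp16, Mmp23 and Adamts2 by over 1.5 times, always away from 0, and voom did so for Adamts6 and Adamts7 between the unheated genotypes. Voom on the recovered fragments called 4, 17, 19, 14 and 16 of the 21 genes for heat in CHIP-KO, heat in WT, genotype unheated, genotype heated and the interaction.

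With the replicate number as a block, 4 genes were called for heat in CHIP-KO cells, Adamts7 being gained (log2 change 0.25), and 17, 19, 14 and 15 in the other comparisons in the same order, with no other call changed. Equal-sum scaling added calls of Adamts1, Timp2 and Timp3, all lower with heat in CHIP-KO cells, and of Timp2 as lower in heated CHIP-KO than in heated WT cells (log2 change -0.19). Under that scaling the median over all genes shifted by at most -0.076 (log2). The cause of each moved count was not tested, other than the added members without the filter. Depth limits the 24 genes below the filter, for which single fragments decide the values.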

Other observations

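The balance of inhibitor to protease transcripts differed between groups. Summed TIMP over summed MMP FPKM was 1.71, 1.59 and 1.64 in heated and 1.81, 1.79 and 1.69 in unheated CHIP-KO libraries, and 1.44, 1.32 and 1.25 in heated and 2.32, 2.39 and 2.45 in unheated WT libraries. Unheated WT libraries had the highest ratio and heated WT libraries the lowest, and neither overlapped another group. Both sums are dominated by a few genes, Timp2 and Mmp14 above all.

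Of the genes below the filter, Adamts16, Mmp21, Mmp24 and Mmp25 were higher in heated than in unheated libraries without overlap of FPKM values in both genotypes. Taken each alone, 23.9% of all such weakly expressed genes were so in CHIP-KO and 37.5% in WT cells. The share that was so in both genotypes was not counted. Adamts16 had 38, 23 and 16 fragments in heated and 13, 16 and 13 in unheated CHIP-KO libraries, and 60, 57 and 47 in heated and 15, 30 and 49 in unheated WT libraries. In fragments, which depend on depth, the Adamts16 groups overlap. These 4 genes were named after their values were seen. Mmp24 had 5, 6 and 9 fragments in heated and 2, 3 and 1 in unheated CHIP-KO libraries, and 29, 5 and 5 in heated and 0, 3 and 1 in unheated WT libraries. Mmp21 had 9, 6 and 6 fragments in heated and 0, 0 and 1 in unheated CHIP-KO libraries, and 14, 5 and 1 in heated and 0, 0 and 0 in unheated WT libraries. Heated WT replicate 1, which stood apart from its group, held most of the heated WT fragments of Mmp21 and Mmp24.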
